A study of Mus musculus with 12 samples.

Results

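The hematopoietic stem and progenitor genes described here are Kit, Cd34, Gata2, Meis1, Hoxa9, Myb, Hlf, Mecom, Procr and Lmo2. They were chosen by symbol, as markers and regulators of the early blood cells that busulfan depletes, and are 10 of the 18221 genes in the tables of spleen RNA. Of these 10 genes, 7 passed the filter on low values and 3 (Hoxa9, Hlf and Mecom) were too low to be tested. RNA was sequenced from the spleens of 12 male ICR mice, 3 weeks old at the start and 8 weeks old when the spleens were taken, in 4 groups of 3. Con-sa mice received no busulfan and were dosed with saline. B-sa mice received a single injection of busulfan at 40 mg/kg and then saline. B+Con-FMT mice received the same injection and then, by mouth for 2 weeks, a fecal microbiota transfer (FMT) from water-dosed donors. B+A10-FMT mice received the injection and a transfer from donors dosed with alginate oligosaccharide at 10 mg/kg. The transferred material was small-intestine content pooled over donors, so each kind of transfer rests on pooled donor material, and the spleens were taken weeks after the last dose. The sample labels call the groups ISC, ISS, ISFC and ISFA.

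Blood stem cells lie mainly in the bone marrow, and in the mouse a smaller number of stem and progenitor cells lives in the red pulp of the spleen, which keeps making red cells and some myeloid cells in adult life. Busulfan is an alkylating drug that kills these cells and is given before stem cell transplantation. The cells carry the receptor Kit on their surface, which binds stem cell factor (encoded by Kitl) from endothelial and stromal cells, and they are kept in an immature state by transcription factors such as Gata2, Lmo2, Meis1 and Hoxa9. Most of these genes also serve other cells: Kit is high in mast cells, Cd34 and Procr in vessel walls, and Lmo2 and Myb in red cell precursors. In whole spleen, fewer cells of a type and less RNA per cell cannot be told apart.

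Kit, whose level separated the transfers, is listed in the tables in a pair of well known coding forms that differ by 12 bases (4 codons) at the end of exon 9, in the part that encodes the stretch just outside the membrane. The bases are at chr5:75639147-75639158 on the plus strand (GRCm38). The sequences are shown because, within the coding region, reads over this short stretch are all that can tell the forms apart. The GENCODE transcripts matched to the forms also start at different bases of chromosome 5, 75574955 with the stretch and 75574916 without it. The capitals mark the 12 bases, with 24 bases of coding sequence on each side, from GENCODE M21 and 5′ to 3′.
Kit with the bases (NM_001122733.1): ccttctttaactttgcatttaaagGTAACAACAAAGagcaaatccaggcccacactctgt
Kit without the bases (NM_021099.3): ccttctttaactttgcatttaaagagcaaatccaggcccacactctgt
The coding sequence runs over 2937 bases in the first form and 2925 in the second.

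Values are RPKM, read numbers scaled by transcript length and by the size of the library, as the authors deposited them per transcript and summed here per gene. Depth, estimated from the steps between low RPKM values, was 13800000 to 14500000 reads per mouse. Globin genes took 24.9 to 25.9% of the summed RPKM in Con-sa mice, 28.0 to 32.4% in B-sa mice, 25.3 to 29.4% in B+Con-FMT mice and 23.3 to 27.6% in B+A10-FMT mice. Genes of tissues other than spleen were also read: the summed RPKM of 10 pancreatic acinar genes ran from 449 to 13149 over the mice, and Kap, a kidney gene, ran from 0.58 to 112. Tlx1, a factor that marks spleen stroma, was read at 12.61 to 21.64 RPKM in every mouse. Groups were compared with limma on log2(RPKM + 1) in 1 fit over the 12671 genes that passed the filter (an RPKM of 1 or more in 3 or more mice). Each fold change is on that scale and understates the change of low genes, ± is SD for RPKM and SE for a log2 fold change, and a gene was called at a Benjamini-Hochberg adjusted p under 0.05, two-sided.

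The 10 genes differed widely in level. On the RPKM scale, which is per length, the mean over the 12 mice was 182 for Lmo2, 19.1 for Myb, 9.28 for Procr, 8.42 for Cd34, 8.0 for Kit, 4.38 for Meis1, 3.27 for Gata2, 0.763 for Mecom, 0.585 for Hoxa9 and 0.468 for Hlf. By that mean Lmo2 ranked 349 and Hlf 13414 among the 18221 genes. Procr, Cd34 and Kit are neighbours whose ranges over the mice overlapped, and so did those of Meis1 and Gata2 and those of Mecom, Hoxa9 and Hlf. The precision behind these levels differs as much, since the RPKM and the estimated depth correspond to about 3308 to 4249 reads per mouse for Lmo2, 478 to 718 for Kit and 14 to 40 for Hoxa9.

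**Figure D1:**
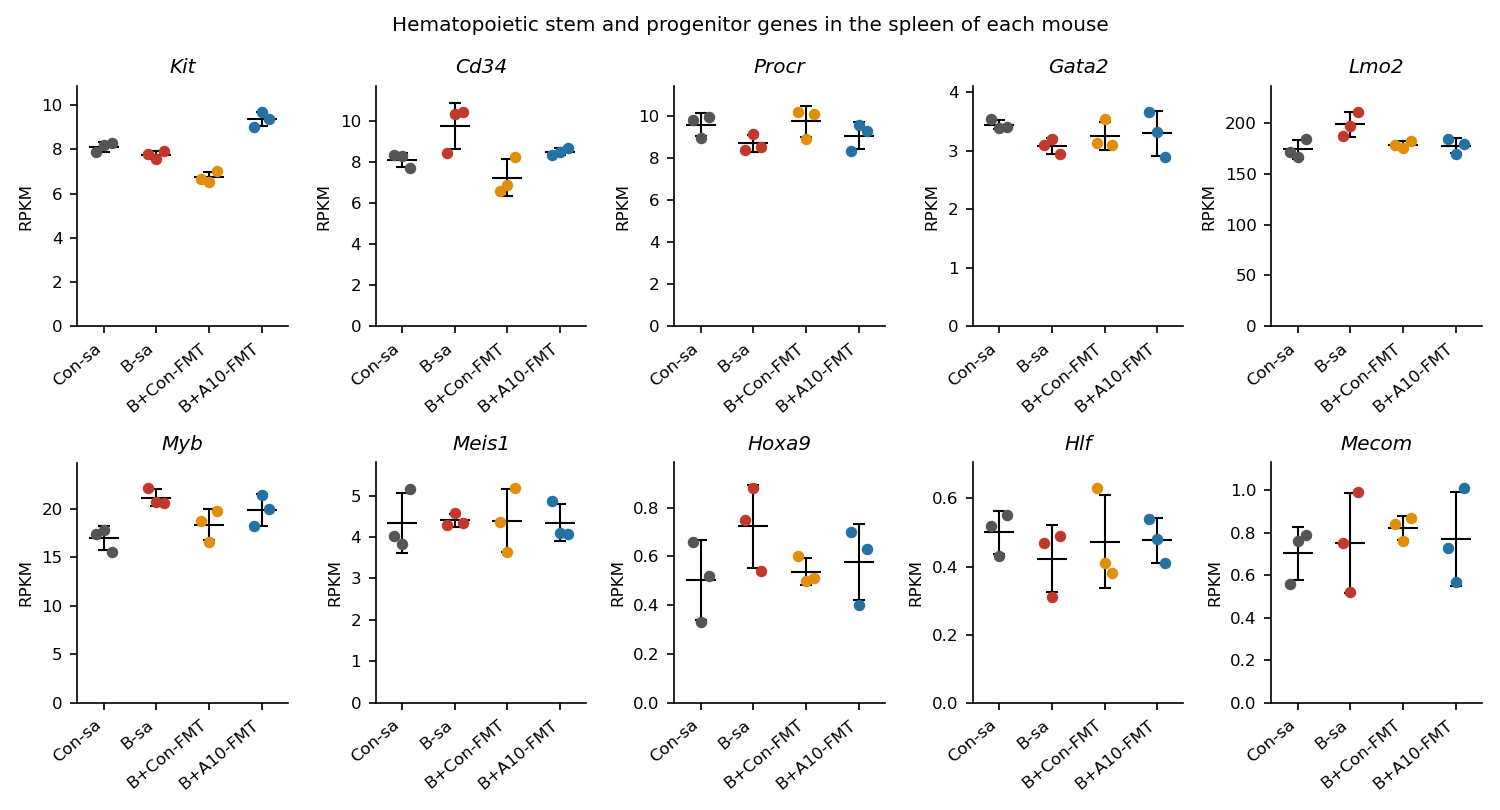
RPKM (vertical axis, each panel with its own scale from 0) of the 10 stem and progenitor genes in each mouse by group; points are mice, the long line is the mean of 3 and the bars are SD. The 3 B+A10-FMT mice lie above and the 3 B+Con-FMT mice below all others for Kit, and Hoxa9, Hlf and Mecom stay at about 1 RPKM or less.

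Kit is a receptor tyrosine kinase that blood stem cells, progenitors and mast cells need for survival. Its RPKM was 7.87, 8.20 and 8.30 in Con-sa, 7.81, 7.56 and 7.92 in B-sa, 6.66, 6.54 and 7.01 in B+Con-FMT and 9.04, 9.71 and 9.39 in B+A10-FMT. The B+Con-FMT mice were the 3 lowest and the B+A10-FMT mice the 3 highest of the 12, while B-sa and Con-sa overlapped between them. Kit was 0.42 ± 0.058 higher on the log2 scale in B+A10-FMT mice than in B+Con-FMT mice (1.34-fold, adjusted p = 0.002 by limma, n = 3 per group) and stood at rank 36 of the 12671 genes by p. Against B-sa, the B+A10-FMT level was 0.24 ± 0.058 higher (1.18-fold, adjusted p = 0.0336) and 0.24 ± 0.058 lower, as a log2 fold change of -0.24, in B+Con-FMT than in Con-sa (adjusted p = 0.0272). In B-sa against Con-sa the log2 fold change of Kit was -0.058 ± 0.058 (adjusted p = 0.524). The differences of B+Con-FMT from B-sa (-0.18, adjusted p = 0.134) and of B+A10-FMT from Con-sa (0.19, adjusted p = 0.215) were not called, although the mice of the groups did not overlap in either. The comparisons share their control mice and are not independent of each other.

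The call between the transfers was made in all 9 other settings tried and without each of the 6 mice. The call against B-sa was lost in 4 of the 9, among them median-of-ratios scaling (adjusted p = 0.0513), NM transcripts alone (0.0784) and a fit of the 2 groups alone (0.109), and it was kept without B-sa mouse 1 (0.0465) and lost without each of the other 5 mice (0.0527 to 0.127). The call of B+Con-FMT against Con-sa was lost with NM transcripts alone (0.0545) and in the fit of 2 groups (0.0567), and was kept only without B+Con-FMT mouse 3 (0.0431), with 0.0625 to 0.0839 without each of the others.

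The form of Kit with the 12 bases was at 3.90, 2.93 and 2.37 RPKM in Con-sa, 1.99, 2.77 and 1.74 in B-sa, 1.58, 1.21 and 1.91 in B+Con-FMT and 3.33, 3.82 and 3.08 in B+A10-FMT. The form without them was at 3.97, 5.27 and 5.93 in Con-sa, 5.82, 4.79 and 6.18 in B-sa, 4.80, 5.33 and 5.10 in B+Con-FMT and 5.71, 5.89 and 6.31 in B+A10-FMT. Both forms were higher in each B+A10-FMT mouse than in each B+Con-FMT mouse. The form with the bases made up 37.9 ± 10.7% of the RPKM of Kit in Con-sa mice, 28.0 ± 7.66% in B-sa mice, 23.2 ± 4.40% in B+Con-FMT mice and 36.3 ± 3.3% in B+A10-FMT mice. Both forms hold most of the sequence of Kit, where reads can be divided between them only by an estimate, so these shares are given as a description with no test.

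Stem cell factor, the ligand of Kit, was measured through Kitl. Its RPKM was 13.01, 12.57 and 11.73 in Con-sa, 12.83, 10.08 and 11.15 in B-sa, 10.04, 7.85 and 11.97 in B+Con-FMT and 13.19, 15.94 and 14.62 in B+A10-FMT. The B+A10-FMT mice were above all others, and the B+Con-FMT mice overlapped with both B-sa and Con-sa. Kitl was 0.52 ± 0.12 higher on the log2 scale in B+A10-FMT mice than in B+Con-FMT mice (adjusted p = 0.0234 by limma). This call was made in 7 of 9 other settings (adjusted p of 0.00757 to 0.0655) and was kept without B+Con-FMT mouse 3 or B+A10-FMT mouse 1 and lost without each of the other 4 mice (0.00753 to 0.102 over the 6).

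**Figure D2:**
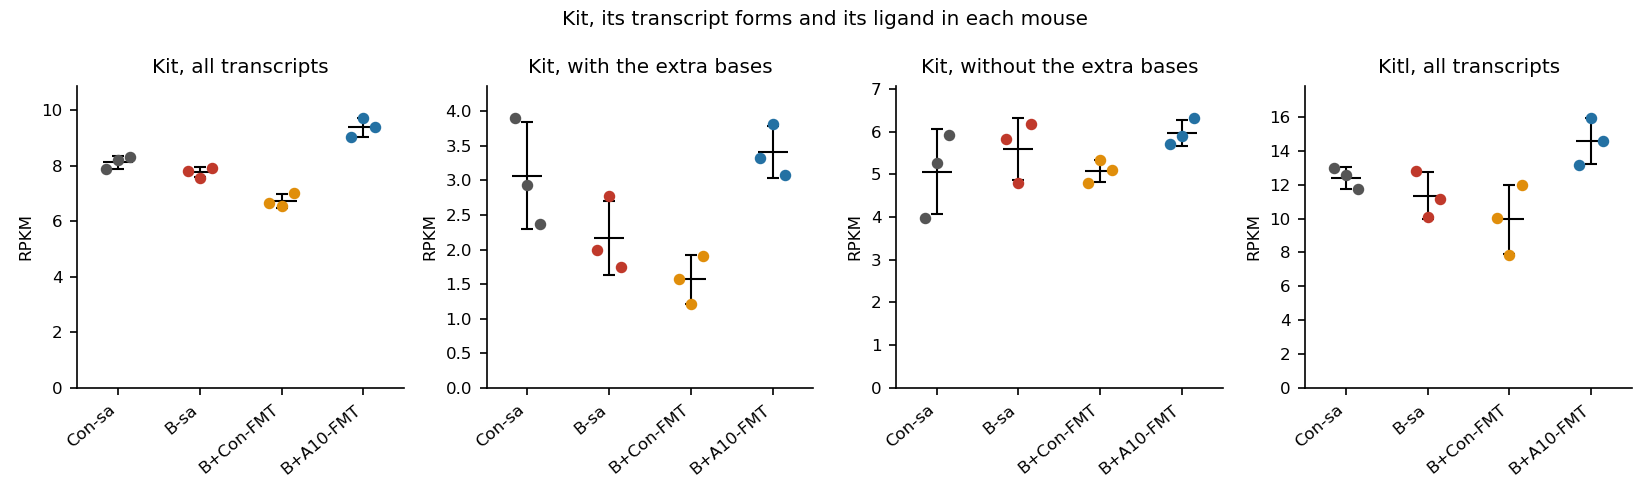
RPKM (vertical axis, from 0) of Kit, of its forms with and without the 12 bases and of its ligand Kitl in each mouse by group; points are mice, lines are means of 3 and bars are SD. In each panel the 3 B+A10-FMT mice lie above the 3 B+Con-FMT mice.

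Mast cells hold much Kit, so mast cell and basophil genes were read beside it. Of 9 such genes in the tables, 7 passed the filter. The summed RPKM of the 9 was 18.81 to 21.15 in Con-sa mice, 16.76 to 27.58 in B-sa mice, 12.19 to 21.37 in B+Con-FMT mice and 17.85 to 24.25 in B+A10-FMT mice, ranges that overlap between the groups compared. The highest were Mcpt8 (mean 5.06 RPKM), Hdc (3.22) and Mcpt4 (3.09), all below Kit. None of the 7 was called in B+A10-FMT against B+Con-FMT, and the only call in any comparison was Cma1, a mast cell protease, lower in B+Con-FMT mice than in Con-sa mice (-1.0 ± 0.17, adjusted p = 0.00706). Between the transfers Cma1 was at 0.77, 0.84 and 1.68 RPKM in B+Con-FMT and 1.72, 1.93 and 1.84 in B+A10-FMT, groups that did not overlap (0.46 ± 0.17, adjusted p = 0.108), and Cpa3, another mast cell protease, differed by 0.30 ± 0.17 (adjusted p = 0.26) with overlap. Hdc went the other way, also without overlap, at 3.09, 3.73 and 5.36 RPKM in B+Con-FMT and 3.03, 2.94 and 1.94 in B+A10-FMT. Of the 7 tested genes, 6 had a positive difference between the transfers and 1 a negative. The summed RPKM of 15 endothelial genes was 295 to 311 in Con-sa mice, 235 to 260 in B-sa mice, 217 to 256 in B+Con-FMT mice and 300 to 318 in B+A10-FMT mice. In that list, 8 genes were higher in B+A10-FMT mice than in B+Con-FMT mice and none lower, led by Kdr (0.58), Cdh5 (0.57) and Eng (0.55), receptors and junction proteins of vessel lining. That count was 3 to 8 without each of the 6 mice in turn and 5 or 10 with the other scalings, none lower. The part of endothelial or mast cells in the Kit difference was not tested. The summed RPKM of the acinar genes was 8181 to 13149 in B+Con-FMT mice and 449 to 9428 in B+A10-FMT mice, that of Kap was 16.84 to 59.98 and 0.58 to 2.96, and their part in the Kit difference was not tested.

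Cd34 encodes a sialomucin of stem and progenitor cells and of vessel lining. Its RPKM was 8.34, 8.32 and 7.72 in Con-sa, 8.47, 10.38 and 10.47 in B-sa, 6.58, 6.88 and 8.28 in B+Con-FMT and 8.37, 8.51 and 8.69 in B+A10-FMT. The B-sa mice lay above those of Con-sa, the first of them by a small margin, and all B+Con-FMT mice lay below those of B-sa and B+A10-FMT. None of these differences was called: it was 0.23 ± 0.089 in B-sa against Con-sa (adjusted p = 0.0938), -0.39 ± 0.089 in B+Con-FMT against B-sa (0.0651) and 0.21 ± 0.089 in B+A10-FMT against B+Con-FMT (0.136). Without B-sa mouse 1 the difference from Con-sa was called (adjusted p = 0.0259), and that between B+Con-FMT and B-sa was called without B-sa mouse 1 (0.0179), without B+Con-FMT mouse 3 (0.0311) and with totals set equal outside the globin genes (0.0471). The mean of Cd34 was highest in B-sa (9.77 ± 1.13), and the part of endothelial cells in its level was not tested.

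Procr encodes the endothelial protein C receptor, a marker of stem cells in mice. It was at 9.83, 8.96 and 9.98 RPKM in Con-sa, 8.41, 9.17 and 8.53 in B-sa, 10.21, 8.92 and 10.12 in B+Con-FMT and 8.33, 9.56 and 9.31 in B+A10-FMT. The mice of every pair of groups overlapped, and no comparison was called. The difference was -0.13 in B-sa against Con-sa (adjusted p = 0.261) and 0.15 in B+Con-FMT against B-sa (0.315).

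Among the transcription factors, Myb, which immature cells of all blood lineages need and which falls as red cells mature, rose after busulfan. Its RPKM was 17.43, 17.84 and 15.53 in Con-sa and 22.11, 20.66 and 20.63 in B-sa. It was 18.69, 16.59 and 19.80 in B+Con-FMT and 18.20, 21.42 and 19.96 in B+A10-FMT. All B-sa mice lay above all Con-sa mice, and the mice of both transfers overlapped with each other. Myb was 0.31 ± 0.078 higher on the log2 scale in B-sa than in Con-sa (adjusted p = 0.024 by limma). The B+Con-FMT mice lay below those of B-sa, but the difference was not called (-0.20, adjusted p = 0.215), nor was that of B+A10-FMT from Con-sa (0.22, adjusted p = 0.26). The Myb call was lost in the linear model without moderation (adjusted p = 0.0534), and was kept without Con-sa mouse 2 (0.0418) or B-sa mouse 3 (0.0412) but not without Con-sa mice 1 or 3 or B-sa mice 1 or 2 (0.0503 to 0.0826).

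Lmo2 encodes an adaptor that joins Tal1 and Gata factors into 1 complex, in stem cells and in red cell precursors. Its RPKM was 171.59, 166.78 and 184.32 in Con-sa, 187.57, 197.66 and 211.40 in B-sa, 178.27, 175.29 and 182.55 in B+Con-FMT and 184.28, 169.70 and 179.77 in B+A10-FMT. The B-sa mice were the 3 highest of the 12, by a small margin over the third Con-sa mouse. Lmo2 was 0.19 ± 0.058 higher in B-sa mice than in Con-sa mice (adjusted p = 0.0447), and the differences of B+Con-FMT (-0.15, adjusted p = 0.198) and B+A10-FMT (-0.16, adjusted p = 0.118) from B-sa were not called. The Lmo2 call was made in 4 of 9 other settings and lost in the others (adjusted p of 0.0583 with no filter, 0.0633 with equal totals outside the globin genes, 0.0733 with NM transcripts, 0.06 in the linear model and 0.116 with 2 groups). It was kept without Con-sa mouse 3 (0.0446) or B-sa mouse 1 (0.0227) and lost without each of the other 4 (0.111 to 0.14). Among the 5 listed Lmo2 transcripts, NM_001142337.1 starts at position 103957995 of chromosome 2 (GRCm38), upstream of NM_001142335.1 (103970129) and NM_008505.4 (103970223), and the starts of the remaining forms were not read. It held 78.6 to 83.4% of the RPKM of the gene in Con-sa mice, 86.8 to 89.7% in B-sa mice, 79.3 to 88.5% in B+Con-FMT mice and 82.7 to 84.9% in B+A10-FMT mice. These shares too rest on such an estimate.

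Gata2, a zinc finger factor that stem cells and mast cells need and that gives way to Gata1 as red cells mature, was low. Its RPKM was 3.54, 3.40 and 3.41 in Con-sa, 3.10, 3.21 and 2.94 in B-sa, 3.13, 3.54 and 3.10 in B+Con-FMT and 3.67, 3.33 and 2.90 in B+A10-FMT. The B-sa mice lay below those of Con-sa, but the difference of -0.12 was not called (adjusted p = 0.321), and the transfers overlapped with both. Gata1, its partner in that exchange, was called 0.45 ± 0.079 higher in B-sa mice than in Con-sa mice (adjusted p = 0.00604), from 61.82, 55.73 and 66.45 RPKM to 78.46, 90.07 and 84.50.

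Meis1, a homeodomain factor that works with Hox proteins in stem cells and in megakaryocytes, was at 4.03, 3.83 and 5.17 RPKM in Con-sa, 4.30, 4.59 and 4.34 in B-sa, 4.37, 3.65 and 5.18 in B+Con-FMT and 4.86, 4.10 and 4.08 in B+A10-FMT. The mice of every pair of groups overlapped. The difference between B-sa and Con-sa was 0.026 (adjusted p = 0.897).

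Hoxa9, Hlf and Mecom, the factors most restricted to stem cells and the earliest progenitors, were too low for the filter. Hoxa9 was at 0.66, 0.33 and 0.52 RPKM in Con-sa, 0.75, 0.88 and 0.54 in B-sa, 0.60, 0.50 and 0.51 in B+Con-FMT and 0.70, 0.40 and 0.63 in B+A10-FMT. Over the 12 mice Hlf ran from 0.31 to 0.63 RPKM and Mecom from 0.52 to 1.01. In each of the 3 the mice of every pair of groups overlapped. These levels correspond to about 14 to 60 reads a mouse, and with no filter none of the 3 was called in any of the 6 comparisons. The read numbers of Hlf and Mecom are rough, since a length was found for 1 of 5 Hlf and 1 of 12 Mecom transcripts and was assumed for the rest.

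Read by comparison, 2 of the 7 tested genes (Myb and Lmo2) were called in B-sa against Con-sa, both higher, where 14.5% of all genes tested were called, 4.73% higher and 9.78% lower. The mice of 4 of the 7 did not overlap (Cd34, Myb and Lmo2 above, Gata2 below), which 34.0% of all genes showed. The median log2 fold change of the 7 was 0.026, against -0.044 over all genes. With median-of-ratios scaling the split over all genes was 965 higher and 772 lower in place of 599 and 1239, while Myb and Lmo2 stayed called.

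Limma called none of the 7 in B+Con-FMT against B-sa, where 0.844% of all genes were called, 0.623% higher and 0.221% lower. There, 4 of the 7 had an unadjusted p under 0.05 (Kit, Cd34, Myb and Lmo2, all lower), against 18.4% of all genes, and the linear model without moderation also called 0. The mice of these 4 genes did not overlap, which 19.4% of all genes showed. Kit alone, higher, was called of the 7 in B+A10-FMT against B-sa, with 5.27% of all genes called, 4.0% higher and 1.27% lower. The mice did not overlap for Kit and Lmo2, against 27.0% of all genes.

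Between the transfers 1 of 7 was called (Kit, higher in B+A10-FMT), with 10.4% of all genes called, 7.58% higher and 2.78% lower, and the mice did not overlap for Kit and Cd34, against 35.0% of all genes. With median-of-ratios scaling the split over all genes turned from 507 higher and 161 lower to 282 and 349 in B+A10-FMT against B-sa, and from 960 and 352 to 560 and 695 between the transfers. Against Con-sa, Kit alone was called in B+Con-FMT, lower, and its mice alone did not overlap, where 8.87% of all genes were called, 2.30% higher and 6.57% lower, and 34.1% did not overlap. With that scaling 580 genes were higher and 527 lower there in place of 292 and 832. Limma called 0 of 7 in B+A10-FMT against Con-sa, where 0.410% of all genes were called, 0.118% higher and 0.292% lower, and 2 of the 7 (Kit and Myb) had an unadjusted p under 0.05, against 13.5% of all genes. The linear model also called 0, and the mice of Kit, Myb and Cd34 did not overlap, against 21.6% of all genes.

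**Figure D3:**
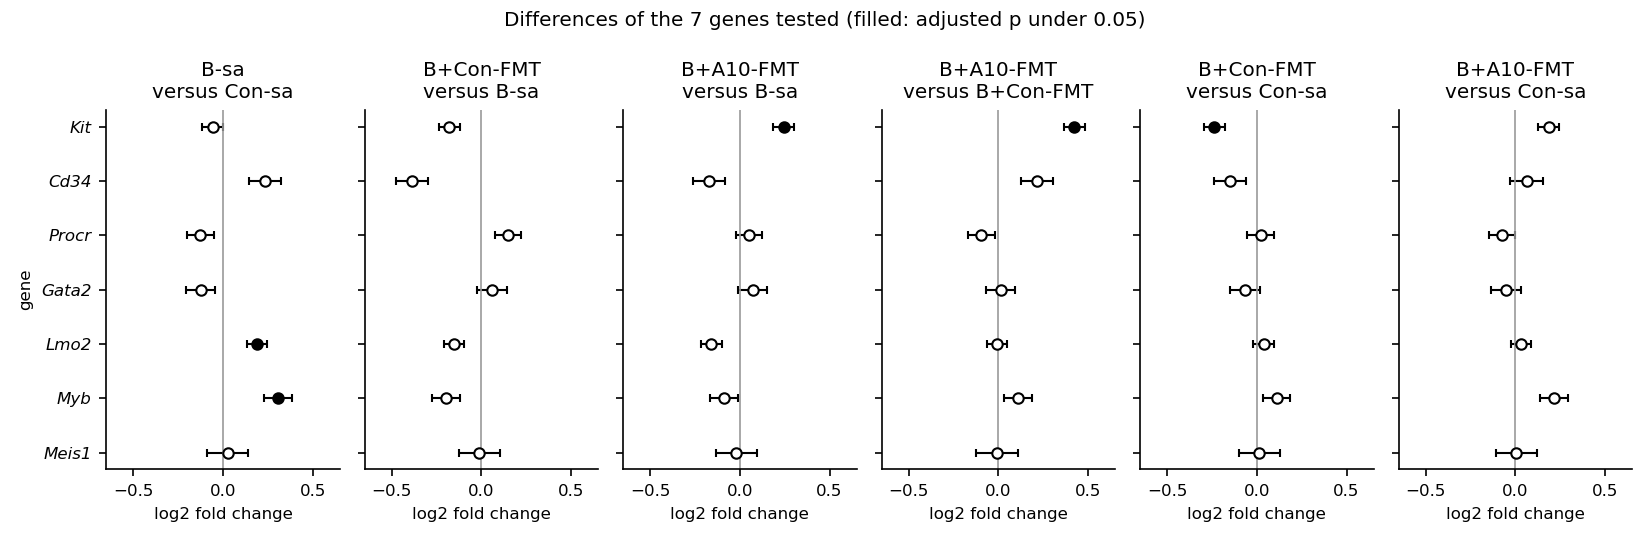
Log2 fold change on the log2(RPKM + 1) scale (axis in log2 units, bars are SE) of the 7 tested genes in each of 6 comparisons; filled points are called at an adjusted p under 0.05. The filled points are Myb and Lmo2 in B-sa against Con-sa and Kit in 3 comparisons, with the greatest value for Kit, 0.42, between the transfers.

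Over the 12 mice the levels of the 7 tested genes were compared in pairs. The highest correlation between a pair of the 7 was that of Cd34 and Lmo2 (Pearson r = 0.633), the lowest was that of Myb and Gata2 (-0.637), and Kit ran from -0.232, with Procr, to 0.397, with Cd34. Outside the list, the levels most like that of Kit were those of Slc6a6 (r = 0.974), I830077J02Rik (0.967) and Afap1l2 (0.960), and those most like Cd34 were Kif20b (0.927), St3gal6 (0.923) and Dsn1 (0.914). Psmd14 (0.934), Gmps (0.920) and Ap3s1 (0.901) were most like Myb, and Esd (0.923), Upk1b (0.915) and Atl2 (0.904) most like Lmo2. For Procr they were Ccdc191 (0.910), Thoc5 (0.864) and Jmjd8 (0.850), for Meis1 Tpm2 (0.862), Btbd10 (0.858) and Rsad1 (0.839), and for Gata2 Spred3 (0.813), Cbfa2t3 (0.806) and Il1b (0.804). These values describe 12 libraries that share group, depth and composition, and were picked as the highest among 12671 genes.

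Beyond the 10 genes, 59 other genes in 4 lists cover the same cells, and 51 of them passed the filter. Among genes restricted to stem cells, 16 of 20 were tested, with the highest levels in Ly6a (178 RPKM), Cd63 (86.5) and Pdzk1ip1 (75.3), which many other cells use. Fgd5, a stem cell and endothelial gene, was the only call in B-sa against Con-sa. Its RPKM was 4.32, 3.48 and 3.73 in Con-sa, 2.54, 2.52 and 3.03 in B-sa, 2.98, 2.73 and 3.08 in B+Con-FMT and 3.97, 3.65 and 3.67 in B+A10-FMT. Each B-sa mouse lay below each Con-sa and B+A10-FMT mouse. Fgd5 differed by -0.39 ± 0.088 in B-sa against Con-sa (adjusted p = 0.0144), a call made in 8 of 9 other settings and lost without Con-sa mouse 1 or B-sa mouse 2. The B+A10-FMT level was 0.37 ± 0.088 above that of B-sa (adjusted p = 0.0341), a call made in 6 of 9 other settings, kept without B-sa mouse 3 and lost without each of the other 5 mice. In that comparison 6 of 15 endothelial genes were higher and none lower, led by Stab2 (0.52), Cdh5 (0.50) and Eng (0.49), with 1 to 7 higher without 1 mouse. Also called were 2 of 7 red pulp and stroma genes, Tlx1 (0.61) and Spic (0.50), and, lower, 2 of 13 cycling genes, Tyms (-0.38) and Pcna (-0.25). The part of endothelial cells in the Fgd5 difference was not tested. Tek, the angiopoietin receptor of vessels and stem cells, was higher in B+A10-FMT mice than in B+Con-FMT mice (0.43 ± 0.11, adjusted p = 0.0261, made in 7 of 9 other settings and kept only without B+Con-FMT mouse 3 or B+A10-FMT mouse 3), and Tek and Hoxa5 were lower in B+Con-FMT mice than in Con-sa mice. Against Con-sa the Tek call was made in 8 of 9 other settings and kept only without Con-sa mouse 2 or B+Con-FMT mouse 3, and the Hoxa5 call in 4 settings and only without B+Con-FMT mouse 1.

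Of 16 other stem and progenitor transcription factors, 15 were tested, led in level by Ldb1 (118 RPKM), Ikzf1 (105) and Spi1 (65.3). In B-sa against Con-sa 2 were lower, Cbfa2t3 (-0.40 ± 0.076, adjusted p = 0.00787) and Fli1 (-0.22 ± 0.056, 0.0231), and none was higher. Each call was made in 8 of 9 other settings, that of Cbfa2t3 was kept without each of the 6 mice, and that of Fli1 was lost without Con-sa mouse 2 or 3 or B-sa mouse 2. Cbfa2t3, a corepressor in the complex of Lmo2 and Tal1, was at 13.49, 13.69 and 13.61 RPKM in Con-sa and 10.06, 10.25 and 9.81 in B-sa, with every B-sa mouse below every Con-sa mouse. Runx1, which stem cells need to arise, was at 9.43, 9.90 and 9.65 in Con-sa, 8.47, 8.35 and 9.06 in B-sa, 8.40, 8.70 and 8.67 in B+Con-FMT and 10.49, 10.38 and 10.53 in B+A10-FMT. The B+A10-FMT mice were the highest of the 12, as for Kit. Runx1 was 0.25 ± 0.055 higher in B+A10-FMT mice than in B-sa mice (adjusted p = 0.0245) and 0.26 ± 0.055 higher than in B+Con-FMT mice (0.0152). The first of these calls was kept without B-sa mouse 1 or 3 and lost without the other 4 mice, and the second was lost without B+Con-FMT mouse 1 or B+A10-FMT mouse 2. Between the transfers Erg (0.30) and Ikzf1 (0.21) were also higher and none was lower, and in B+Con-FMT against Con-sa Fli1, Erg and Cbfa2t3 were lower. The calls of Ikzf1 and, against Con-sa, Cbfa2t3 were each made in 4 of 9 other settings and lost without each of the 6 mice. That of Fli1 was made in all 9 and kept without each mouse. Those of Erg were made in 7 settings between the transfers and in 4 against Con-sa. They were kept only without B+Con-FMT mouse 3 and, between the transfers, without B+A10-FMT mouse 1.

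Genes of myeloid progenitors, stored granule proteins and growth factor receptors among them, gave the greatest called differences of these lists in B-sa against Con-sa. Of 10 tested, led by Csf1r (69.9 RPKM), Elane (59.9) and Mpo (49.4), 3 were higher in B-sa mice than in Con-sa mice: Prtn3 (1.52 ± 0.38, adjusted p = 0.0335), Ms4a3 (1.46 ± 0.39, 0.0428) and Ctsg (1.44 ± 0.40, 0.045). Prtn3, a protease that promyelocytes store, was at 21.23, 19.86 and 18.01 RPKM in Con-sa, 58.30, 85.15 and 39.58 in B-sa, 25.22, 44.17 and 36.55 in B+Con-FMT and 30.35, 54.74 and 21.45 in B+A10-FMT. All B-sa mice lay above all Con-sa mice, and the mice within each busulfan group were far apart. The Prtn3 call was kept without B-sa mouse 3 and lost without each of the other 5 mice (adjusted p of 0.0307 to 0.11 over the 6), that of Ms4a3 was kept only without B-sa mouse 3, and that of Ctsg was lost without each mouse. The count of higher genes was 0 to 2 without each of the 6 mice in turn and 4 with median-of-ratios scaling. Elane and Mpo, also stored in granules, differed by 1.32 (adjusted p = 0.0538) and 1.23 (0.0707) and were not called, and the receptors Csf1r, Csf3r and Csf2rb by -0.23, -0.10 and -0.11, not called either. Csf1r, the receptor of macrophages and their precursors, was called higher in B+A10-FMT against B-sa (0.46, adjusted p = 0.0414) and against B+Con-FMT (0.46, 0.0296), where the mice overlapped. The first call was made in 3 of 9 other settings and kept only without B+A10-FMT mouse 3, and the second in 5 settings and only without B+Con-FMT mouse 3 or B+A10-FMT mouse 3.

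Of 13 early lymphoid progenitor genes, 10 were tested, led in level by Vpreb3 (57.7 RPKM), Satb1 (28.6) and Ebf1 (22.9). In B-sa 3 were lower than in Con-sa mice, Ebf1 (-0.46), Il7r (-0.33) and Satb1 (-0.30), and none was higher. The count was 0 to 3 without each of the 6 mice in turn and 1 with median-of-ratios scaling. The Ebf1 call was made in all 9 other settings and lost without Con-sa mouse 2 or B-sa mouse 2, that of Il7r was made in 4 settings and kept only without B-sa mouse 1 or 3, and that of Satb1 was made in 3 and lost without each mouse. The surrogate light chain genes of pre-B cells had values in the other direction that were not called: Vpreb1 was at 0.44, 0.33 and 0.54 RPKM in Con-sa and 4.22, 0.95 and 0.75 in B-sa (0.86 ± 0.34, adjusted p = 0.11), and Igll1 differed by 0.72 ± 0.38 (adjusted p = 0.223). The mice did not overlap for Vpreb1 and did for Igll1, and both genes were named after their values were seen. Il7r, the receptor for interleukin 7 on lymphoid progenitors and on mature T cells, was higher than in B-sa mice in both B+Con-FMT (0.49, adjusted p = 0.0409) and B+A10-FMT (0.49, 0.0188). Of 6 T cell genes, Cd3e was also called higher in B+Con-FMT against B-sa (0.48, adjusted p = 0.0492, made in 4 of 9 other settings and kept only without B-sa mouse 1) and Lck was 0.44 (not called, 0.0662), and the part of T cells in the Il7r difference was not tested. The Il7r call in B+Con-FMT was made in 5 of 9 other settings and kept only without B-sa mouse 1. That in B+A10-FMT was made in 6 of 9 and lost without B+A10-FMT mouse 2 or 3. Of the 51 tested genes of these 4 lists, 9, 1, 4, 5, 6 and 0 were called in B-sa against Con-sa, B+Con-FMT against B-sa, B+A10-FMT against B-sa, B+A10-FMT against B+Con-FMT, B+Con-FMT against Con-sa and B+A10-FMT against Con-sa. In the same order, the shares called over all genes tested were 14.5%, 0.844%, 5.27%, 10.4%, 8.87% and 0.410%.

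Among 12 genes of Kit ligand and the stem cell niche, 10 were tested, and the highest were Cxcl12 (268 RPKM), Vcam1 (119) and Cxcr4 (73.8). In B-sa against Con-sa 4 were lower, Jag1, Csf1, Cxcl12 and Il6st, and none was higher. The count was 2 to 3 without each of the 6 mice in turn: Csf1 and Il6st kept their calls without each, Jag1 only without B-sa mouse 3, and Cxcl12 lost its call without each. Between the transfers 5 were higher in B+A10-FMT, Kitl, Il6st (0.40), Vcam1 (0.37), Cxcl12 and Csf1, and Cxcr4 was lower (-0.28). The count of higher genes was 2 to 6 without each of the 6 mice in turn, and Csf1 and Il6st kept their calls without each. With median-of-ratios scaling 3 were higher and 1 lower, with equal totals outside the globin genes 7 were higher and none lower, and the Cxcr4 call was kept only without B+Con-FMT mouse 3. Il6st, the shared signalling chain of the interleukin 6 receptor family, was at 26.88, 27.67 and 28.92 RPKM in B+A10-FMT and at 20.29, 20.79 and 21.50 in B+Con-FMT.

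Markers of more mature blood cells were read beside these genes. In B-sa against Con-sa 5 of 12 erythroblast genes were higher (Gata1, Epor and Rhd led), 9 of 13 cycling genes were higher (Birc5, Aurkb and Tyms led) and 1 of 11 megakaryocyte genes (Gp9) was higher, with none lower in these lists. Without each of the 6 mice in turn, 1 to 11 erythroblast, 3 to 12 cycling and 0 to 2 megakaryocyte genes were called higher, and none lower. The Gp9 call was made in 6 of 9 other settings and kept only without B-sa mouse 1. The summed RPKM of the cycling genes was 1190 to 1297 in Con-sa mice, 1405 to 1612 in B-sa mice, 1276 to 1467 in B+Con-FMT mice and 1334 to 1376 in B+A10-FMT mice, and that of the erythroblast genes 2314 to 2530, 2427 to 3184, 2431 to 2648 and 2544 to 2851. The erythroblast sums of B-sa and Con-sa overlapped and the cycling sums did not, and the part of erythroblasts or cycling cells in the differences of Myb and Lmo2 was not tested. In the same comparison 7 of 15 endothelial genes, 4 of 6 B cell genes (Cd79b, Ms4a1 and Cd79a led) and 3 of 4 tested kidney genes were lower (2 to 8, 2 to 4 and 3 to 4 without each of the 6 mice in turn), and no T cell gene was called in either direction.

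In B+A10-FMT against B+Con-FMT, where Kit was higher, 4 of 7 red pulp and stroma genes were higher, with Hmox1 (0.58) and Tlx1 (0.46) first (1 to 4 without each of the 6 mice in turn), and Tyms was the only cycling gene called, lower. With median-of-ratios scaling 2 red pulp genes were higher and 1 lower, with equal totals outside the globin genes 2 cycling genes were higher and none lower, and the Tyms call was made in 3 of 9 other settings. In the comparison of the transfers 2 of 4 tested kidney genes were lower in B+A10-FMT, Kap (-3.59, adjusted p = 0.00789) and Miox (-0.77, 0.0132), and so was Pax5, a B cell factor (-0.28, 0.0302). The Pax5 call was made in 5 of 9 other settings and kept only without B+Con-FMT mouse 3 or B+A10-FMT mouse 3. None of the erythroblast, megakaryocyte, T cell or 10 pancreas acinar genes was called there. Without B+A10-FMT mouse 3, whose acinar sum was 9428 against 449 and 777 in the other B+A10-FMT mice, 9 of the 10 acinar genes were called lower, and Kit was then 0.42 higher (adjusted p = 0.00708). In B+Con-FMT against Con-sa 3 T cell genes (Lck, Cd3g and Cd3e) were higher and 8 endothelial genes lower (1 to 2 and 2 to 8 without each of the 6 mice in turn). Of the 120 calls of list genes over the 6 comparisons (a gene in more than 1 list counted once), 23 were kept in all 9 other settings and without each of the 6 mice, and 119 kept their direction throughout, all but that of Ikzf1.

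**Figure D4:**
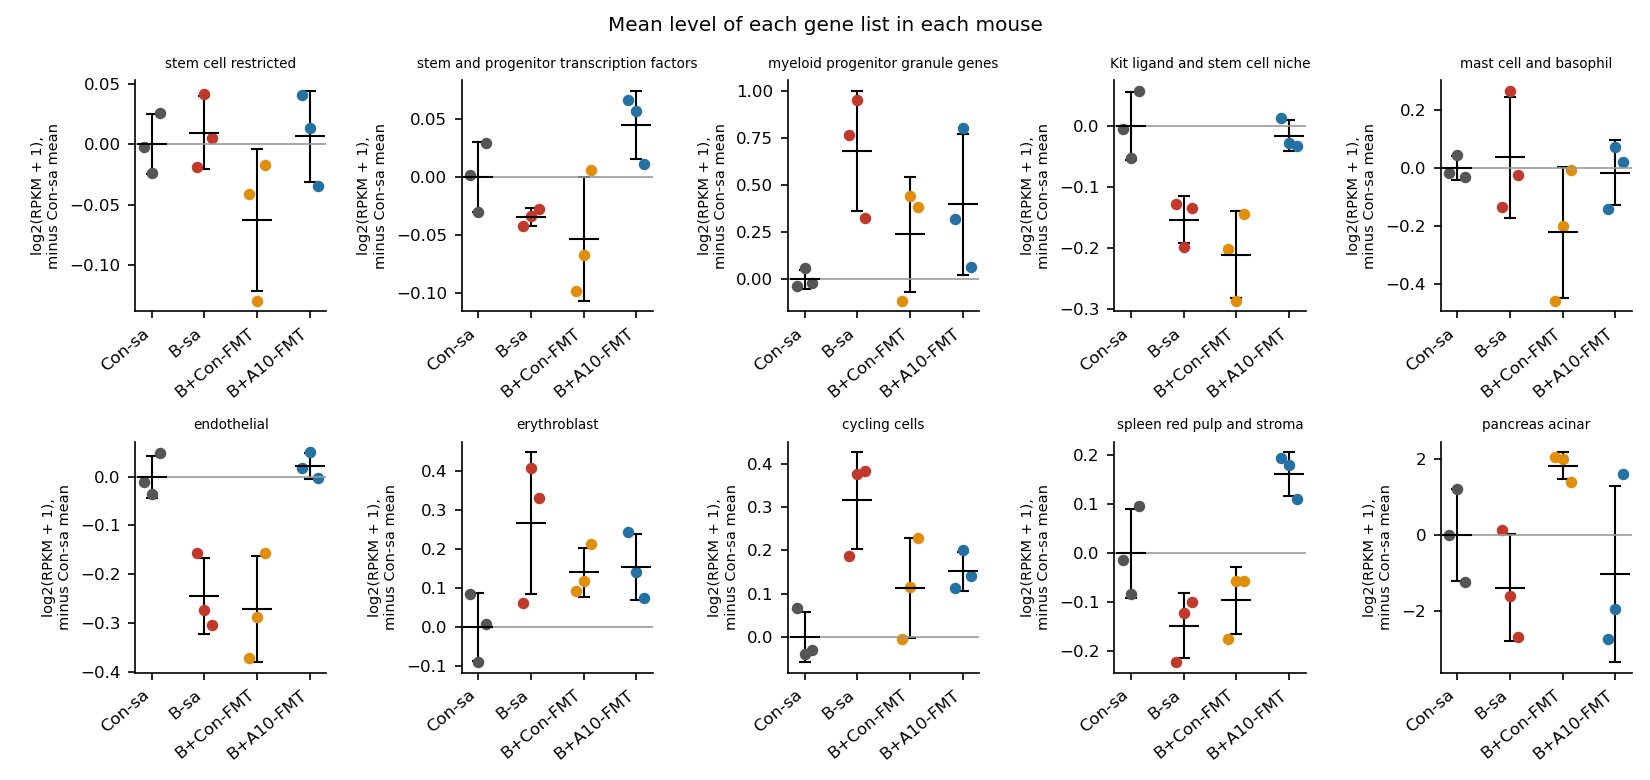
Mean log2(RPKM + 1) of all measured genes of 10 lists in each mouse, also those below the filter, less the mean of the Con-sa mice. The vertical axis is in log2 units, each panel with its own scale, points are mice and lines are means of 3. Endothelial genes lie higher in the B+A10-FMT mice than in the B-sa and B+Con-FMT mice, and myeloid granule genes spread widely within the busulfan groups.

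Promoters were searched for the letters of motifs that factors of these cells bind, from 250 bases before to 50 after the start, on both strands, in RefSeq promoters of GRCm38.p6. Of the 10 genes 9 had an entry, with 12 promoters, and Lmo2 had none. The letters of a Gata site (AGATAA or TGATAA) were in 1 of the 12, against 18.6% of all 32851 promoters. Those of an E-box that Tal1 can bind (CAGCTG or CATCTG) were in 4, against 30.6%, and those of an Ets site (CCGGAAG or AGGAAG) in 5, against 41.2%. The 5 promoters are of 4 genes, since the pair of Kit promoters overlap almost wholly. Both Ets forms hold GGAAG, and a match describes the sequence only.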

How the data were processed

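RNA from the spleens of 12 mice was sequenced, and the values used are RPKM per RefSeq transcript as the authors deposited them, 1 table per mouse. The study's methods state oligo(dT) enrichment, mapping with SOAPaligner and testing with DEGseq, while the submitters' processing notes name HISAT, Bowtie2 and mm10, so the aligner behind the tables is uncertain. RPKM of 60654 transcripts were summed to 18221 genes, 18101 of them matched to a symbol. After a filter that kept the 12671 genes reaching an RPKM of 1 in 3 or more mice, log2(RPKM + 1) was fitted by limma (version 3.58.1, under R 4.3.3; trend and robust empirical Bayes, all 12 mice in 1 fit, group as the only factor, 6 comparisons), with Benjamini-Hochberg adjustment over all genes tested. Alternatives were another pseudocount (0.1), 2 other filters, 2 other scalings, NM transcripts alone, a replicate block, a fit of 2 groups alone, a linear model without moderation, and leaving out each mouse. An exact permutation test of 3 mice against 3 cannot go below 0.1 and was not used. RPKM are not counts, so no counting interval is given, and depth was estimated from low-value steps of 590 genes with 1 transcript. Tables were prepared with Python 3.11.15 and pandas 2.3.3. The p-values measure the spread between these mice, whose litters and cages are not given in the sources used here.

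The members and lists were chosen with earlier results of these data known. The genes to be named were all 10 members, the 3 highest of each list by mean RPKM, up to 3 called genes of greatest change per list and comparison, and the 3 genes most like each member. Not every gene that this rule covers is printed, and Lepr and Slc34a1 are among those left out. Further genes of a count of 5 or fewer, and Kap, Cpa3, Csf3r, Csf2rb, Vpreb1 and Igll1, were named after their values were seen. No mouse was left out otherwise.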

Additional observations from a re-analysis of the deposited data

Results flagged for a closer look

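Kit moved in opposite directions in the transfer groups relative to B-sa: 0.24 higher on the log2 scale in B+A10-FMT and 0.18 lower in B+Con-FMT (log2 fold change -0.18), the latter not called. The difference between these changes was 0.42 by the direct comparison of the transfers (adjusted p = 0.002 by limma, higher in 3 of 3 B+A10-FMT mice than in any B+Con-FMT mouse). Both changes use the same 3 B-sa mice. Groups of 3 were not searched for single mice that stand apart.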

How the results depend on the processing

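Of 630 fits of a member's difference under other settings or without 1 mouse, 35 had the opposite sign, all of differences that were not called. The count of members called (2, 0, 1, 1, 1 and 0 in B-sa against Con-sa, B+Con-FMT against B-sa, B+A10-FMT against B-sa, B+A10-FMT against B+Con-FMT, B+Con-FMT against Con-sa and B+A10-FMT against Con-sa) moved as follows, and the cause was not tested. In B-sa against Con-sa it was 1 with no filter, with equal totals outside the globin genes, with NM transcripts and with 2 groups alone, 0 in the linear model without moderation, and 0 to 2 without 1 mouse. In B+Con-FMT against B-sa it was 1 with equal totals and 0 to 1 without 1 mouse. In B+A10-FMT against B-sa it was 0 with the replicate block, median-of-ratios scaling, NM transcripts and 2 groups alone, and 0 to 1 without 1 mouse. In B+Con-FMT against Con-sa it was 0 with NM transcripts and 2 groups alone, and 0 to 1 without 1 mouse.

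Over all genes tested, mice of the same replicate number did not deviate together more than others (r of -0.37 to 0.30 over 18 pairs of mice, -0.43 to 0.51 over 36 pairs of other numbers). What the numbers stand for is not given in the sources used here, and a shared litter, cage or batch was not tested. With the replicate block the members called were 2, 0, 0, 1, 1 and 0, and the block changed the call of Kit in B+A10-FMT against B-sa alone (adjusted p = 0.0552).

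Not called differences changed sign for Meis1 with NM transcripts (0.045 in B+A10-FMT against B-sa, 0.20 against B+Con-FMT, and -0.061 in B+Con-FMT against Con-sa) and with equal totals (0.040 between the transfers, -0.026 in B+Con-FMT against Con-sa). Others that did were Gata2 between the transfers with median-of-ratios scaling (-0.027), Lmo2 with equal totals (0.051 between the transfers, -0.012 in B+Con-FMT against Con-sa) and Procr in B+Con-FMT against Con-sa with equal totals (-0.024). Without 1 mouse Meis1 ran from -0.043 to 0.13 in B-sa against Con-sa, -0.088 to 0.016 in B+A10-FMT against B-sa, -0.11 to 0.094 between the transfers, -0.063 to 0.11 in B+A10-FMT against Con-sa, -0.11 to 0.091 in B+Con-FMT against B-sa and -0.088 to 0.12 in B+Con-FMT against Con-sa. Gata2 ran from -0.049 to 0.081 between the transfers and -0.11 to 0.015 in B+A10-FMT against Con-sa, Lmo2 from -0.033 to 0.027 and from -2e-04 to 0.072 in the same comparisons, and Procr from -0.023 to 0.078 in B+Con-FMT against Con-sa.

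For the 51 other stem and progenitor genes the settings were chosen after seeing the data. Their calls (9, 1, 4, 5, 6 and 0) were 5 with NM transcripts and 1 to 10 without 1 mouse in B-sa against Con-sa, and 0 with no filter, NM transcripts, 2 groups or the linear model and 0 to 1 without 1 mouse in B+Con-FMT against B-sa. In B+A10-FMT against B-sa they were 2 with median-of-ratios scaling or the linear model, 0 with NM transcripts or 2 groups and 0 to 4 without 1 mouse. Between the transfers they were 3 with the replicate block, 10 with equal totals, 1 with NM transcripts, 2 with the linear model and 0 to 6 without 1 mouse. In B+Con-FMT against Con-sa they were 2 with no filter, the replicate block, median-of-ratios scaling or NM transcripts and 1 to 4 without 1 mouse.

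Over all genes the count called in B-sa against Con-sa was 1838 and fell to 741 with NM transcripts, 972 with 2 groups alone and 510 without B-sa mouse 2. Between the transfers it was 1312, with 2339 under equal totals (2100 higher and 239 lower), 546 with NM transcripts and 222 without B+A10-FMT mouse 2. In B+Con-FMT against B-sa it was 107, with 180 under equal totals (67 higher and 113 lower), 7 in the linear model and 25 with NM transcripts. Leaving out 1 mouse moved this count from 19 (without B-sa mouse 2) to 468 (without B-sa mouse 1). In B+A10-FMT against B-sa it was 668, with 203 for NM transcripts, 158 for 2 groups and 106 without B+A10-FMT mouse 2. For B+Con-FMT against Con-sa it was 1124, with 1836 under equal totals (199 higher and 1637 lower), 382 for NM transcripts and 337 without Con-sa mouse 1. In B+A10-FMT against Con-sa it was 52, with 1 for NM transcripts and 0 in the linear model. No scaling moved the median of all genes by as much as 0.10. Hoxa9, Hlf and Mecom rest on an estimated 14 to 60 reads a mouse, with lengths assumed for most Hlf and Mecom transcripts, and without counts no counting error can be given.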
